A study of Arabidopsis thaliana with 24 samples.

Results

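The early-lost probe sets are the Affymetrix probe sets whose signal in the flu mutant of Arabidopsis thaliana was much lower after 30 min of light than in the dark, while the wild type kept them. They were chosen on group means of log2 signal by a rule in 3 parts. The flu value at 30 min minus 0 min was at or below -1.5, the wild-type value at 30 min minus 0 min was above -0.5, and the wild-type value at 120 min minus 0 min was below 1. The rule found 335 of 22217 probe sets, or 1.51% of the table. Of these, 165 are paired with 1 gene each in the annotation used, 6 with several genes, and 164 have no listed gene.

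The groups were whole seedlings of the Col-0 ecotype, 4 days old, of the genotypes wt, fc1-1 (fc1 below), fc2-1 (fc2) and flu, each at 0, 30 and 120 min of light. Seeds of every group were stratified cold and dark for 4 days, received 2 h of light to start germination, and then grew wrapped from light for 4 days at 22 °C. The 0 min groups were never unwrapped, and the others were moved into 120 µmol m-2 s-1 of light. There were 24 arrays, 2 in each of the 12 groups. The labels mark them as biological replicates and do not say whether separate plates or seed lots were used, so the p-values reflect the spread among these arrays and no more. Each mutant genotype is represented by 1 line, and the labels name no allele for flu.

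FLU holds back the first committed step of tetrapyrrole synthesis in the dark. Without it, dark-grown seedlings overfill with protochlorophyllide, a precursor of chlorophyll that passes light energy to oxygen and so gives singlet oxygen inside the plastid. Ferrochelatases, of which FC1 and FC2 are the plastid forms, insert iron into protoporphyrin IX to make haem, and seedlings without FC2 are known to accumulate light-sensitive precursors when first lit. De-etiolation is the time at which a pale seedling starts to build thylakoids, and most proteins of that machinery are coded by nuclear genes.

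The deposited values are log2 signals, and all changes given are differences of log2 group means ± SE from limma, with n = 2 arrays per group. Array medians over all probe sets lay between 5.98 and 6.23. The standard deviation over probe sets was lowest on the arrays of flu at 30 min, at 2.32 and 2.28, against 2.34 to 2.42 on the others. The mean of 2 reference genes was 7.52 and 7.49 on the arrays of flu at 30 min and 7.7 and 7.84 on those of dark flu. Scaled to these reference genes, the rule kept 149 probe sets, all of them among the 335. The 5 measured of 18 seed-maturation markers (OLEO3, LEA4-5, PAP85, M10 and M17) had a mean log2 level of 9.5 and 9.26 in flu at 30 min, and 8.73 and 8.56 in dark flu. Over all 24 arrays that mean ran from 5.94 to 10.02, and within groups the arrays differed most in fc1 at 30 min (8.71 and 6.01). Their part in the results was not tested beyond a fit with 4 of them as a covariate. The dark-seedling genes IAA29 and PORB averaged 10.47 to 10.7 on the 8 dark arrays and 7.84 to 8.58 at 120 min, so the dark groups carried the transcripts of etiolated seedlings. No probe set names FC1, FC2 or FLU alone, so their levels were not analysed here.

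In the dark the early-lost probe sets were bright. Their median level was 8.59 to 8.76 on the 8 dark arrays, against 6.11 to 6.23 for all probe sets, and 331 of the 335 lay above the dimmest 40% of the table. The rule asks for a large fall from dark flu, which a dim probe set can hardly show. This brightness therefore follows in part from the choice. Dark flu and dark wt had like levels for most of the early-lost probe sets. The median difference, flu minus wt, was 0.11, and 297 of 335 differed by less than 0.5. The exceptions were few. AT3G47380 was at 8.05 and 8.13 in dark flu against 6.51 and 6.42 in wt, and AT5G44580 was at 7.52 and 7.37 against 9.41 and 9.16. BGLU25, a gene of the beta-glucosidase family, was at 9.38 and 9.66 against 8.17 and 8.65. In all, 6 were at least 1 log2 unit higher in dark flu than in dark wt and 2 at least 1 unit lower.

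At 30 min the median change of the 335 in flu was -1.78, with quartiles of -2.01 and -1.61 and the lowest at -4.0. Because these values chose the probe sets, they are given as a description with no test. Over all probe sets the median was 0.06, and 491 probe sets changed by -1.5 or lower in flu while 234 changed by 1.5 or higher. Of the 491, the wild-type limits removed 103 for the loss in wt at 30 min and 56 for the gain in wt at 120 min, 3 of them for both. All 335 had both arrays of flu at 30 min below both dark flu arrays, as did 31.6% of all probe sets, and 327 had them below both wt arrays of the same time, as did 26.5% of all. The rule used these arrays, so nothing is read from those counts. RNA came from whole seedlings, in which fewer cells of a type and less RNA per cell cannot be told apart. At the threshold, AT4G30020, AT5G02590 and AT3G62000 were just inside at -1.5, and AT1G06550 (-1.5 after rounding, in full just above the limit), AT1G71695 (-1.49) and AT5G57960 (-1.49) were just outside.

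**Figure D1:**
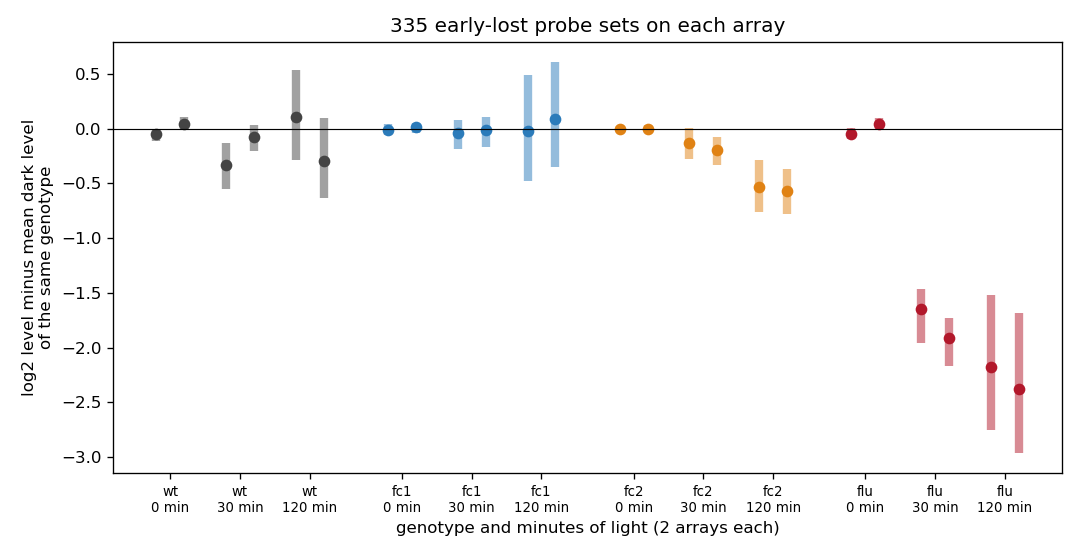
Log2 level of the 335 early-lost probe sets on each of the 24 arrays, minus the mean dark level of the same genotype; points are medians over the probe sets and bars span the quartiles. The 4 lit flu arrays have medians of -1.65 to -2.38, the fc2 arrays at 120 min -0.54 and -0.57, and the fc1 arrays at 120 min -0.02 and 0.09.

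The median was below the dark mean on each lit flu array, and its size differed between the arrays of a group. The rule used the arrays of dark flu, of flu at 30 min and of wt, so these medians are a description with no test. The median over the 335, relative to the dark mean, was -1.65 and -1.92 on the arrays of flu at 30 min and -2.17 and -2.38 on those at 120 min. In wt it was -0.33 and -0.07 at 30 min and 0.1 and -0.3 at 120 min, so the wild-type arrays differed from each other by about as much as from the dark. Left out singly, the arrays moved the number of probe sets that met the rule between 235, without replicate 2 of wt at 30 min, and 477, without replicate 1 of flu at 30 min.

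The deepest losses at 30 min among probe sets with 1 gene were mostly of loci that the annotation names by number only. AT5G44440 was at 11.57 and 11.69 in dark flu, at 7.9 and 7.36 at 30 min and at 7.21 and 7.09 at 120 min. In wt it was at 11.99 and 12.09 in the dark, 11.68 and 11.91 at 30 min and 10.91 and 10.69 at 120 min, so all lit flu arrays were far below every wt array. Its change in flu was -4.0 ± 0.15 at 30 min. AT1G15260 came next at -3.13 ± 0.13, from 8.11 and 8.28 to 5.13 and 5.0, followed by AT1G68780 (-2.77 ± 0.12), AT1G49750 (-2.77 ± 0.15), AT3G23760 (-2.63 ± 0.12) and AT4G22490 (-2.61 ± 0.14). TROL and BGLU44, a further beta-glucosidase, were the named genes among the 12 lowest, and AT5G20740, AT1G29670, AT2G32580 and AT3G47380 filled the remaining places with -2.46 to -2.29.

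There were 30 early-lost genes with a symbol. They are described here by role, and many were picked after their values were seen. The thylakoid genes come first. TROL (AT4G01050), a rhodanese-like protein that tethers ferredoxin-NADP reductase to the thylakoid, was at 10.06 and 10.08 in dark flu, at 7.93 and 7.14 after 30 min and at 6.13 and 5.54 after 120 min. In wt it was at 10.13 and 10.07, then 9.62 and 10.11, then 10.43 and 9.93. All 4 lit flu arrays were lower than every other array of this gene, and the flu arrays at 120 min were lower than those at 30 min. In fc1 TROL was at 10.13 and 10.04 in the dark, 10.13 and 10.15 at 30 min and 10.5 and 10.58 at 120 min, and in fc2 at 10.23 and 10.26, 10.29 and 10.26, and 9.64 and 9.67. At 120 min both fc2 arrays lay below both fc1 arrays, with fc2 minus fc1 at -0.88 ± 0.22 (limma, adjusted p = 0.00533).

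LIL3:1 (AT4G17600) and LIL3:2 (AT5G47110) are light-harvesting-like proteins that hold enzymes of chlorophyll synthesis at the membrane. LIL3:1 was at 10.04 and 10.13 in dark flu, 8.27 and 7.43 at 30 min and 6.36 and 6.5 at 120 min, a change of -2.23 ± 0.2 and then -3.65 ± 0.2. LIL3:2 was brighter in the dark, at 12.06 and 12.1, and reached 10.49 and 10.14, then 8.99 and 8.23. The flu arrays at 120 min did not overlap those at 30 min for either gene. At 120 min the difference fc2 minus fc1 was -1.03 ± 0.2 for LIL3:1 (limma, adjusted p = 0.000991), and for LIL3:2 it was -0.21 ± 0.17 (limma, adjusted p = 0.405), and the genes were not tested against each other.

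NdhL (AT1G70760), a subunit of the chloroplast NAD(P)H dehydrogenase-like complex of cyclic electron flow, went from 8.47 and 8.51 in dark flu to 6.85 and 6.02 and then to 4.61 and 4.74. CaS (AT5G23060), a thylakoid protein of calcium sensing, was at 10.23 and 10.29 in dark flu, 8.78 and 8.49 at 30 min and 6.23 and 6.26 at 120 min. The wild type took CaS the other way, to 11.22 and 10.92 at 120 min from 10.23 and 10.25 in the dark. In fc1 it was at 9.5 and 9.53 in the dark, 9.77 and 9.86 at 30 min and 11.03 and 11.38 at 120 min. In fc2 it was at 10.52 and 10.53, then 10.48 and 10.45, then 9.78 and 9.6. The 120 min arrays thus fell in 3 bands with no overlap, wt and fc1 highest, fc2 more than 1 unit below them, and flu lowest.

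The list of photosystem and light-harvesting genes held 16 measured genes, of which TROL, LIL3:1, LIL3:2, NdhL and CaS were early-lost. The median of the whole list in flu was -1.12 at 30 min and -3.14 at 120 min. At 120 min, 14 of the 16 were lower in flu than in fc2 and 1 was higher (limma, adjusted p under 0.05), with a median difference of -2.82, where 16.0% of all probe sets were lower and 21.5% higher. Against fc1, 15 were lower and 1 higher, where 21.7% and 29.0% of all were. The 5 early-lost genes on the list were chosen for their loss in flu.

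Carbon fixation was represented by PRK (AT1G32060), phosphoribulokinase of the Calvin cycle. It was at 11.54 and 11.64 in dark flu, 9.77 and 9.64 at 30 min and 7.93 and 7.4 at 120 min. In wt it was at 11.85 and 11.81, 11.5 and 11.9, and 12.18 and 11.78, which did not overlap the lit flu arrays. The change in flu was -1.89 ± 0.17 and then -3.92 ± 0.17. ALDH11A3, the non-phosphorylating glyceraldehyde-3-phosphate dehydrogenase, was at 11.22 and 11.26, then 9.45 and 9.33, then 8.49 and 8.11. PRK was 1 of 3 measured genes of the Calvin cycle and photorespiration list, whose median in flu was -1.35 at 30 min and -3.42 at 120 min.

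Chlorophyll and haem precursors are made on a shared pathway, and the uroporphyrinogen decarboxylase genes HEME1 (AT3G14930) and HEME2 (AT2G40490), which act on it, were early-lost. HEME1 was at 9.64 and 9.53 in dark flu, 8.02 and 7.57 at 30 min and 6.79 and 7.05 at 120 min, while wt was at 9.16 and 9.13, 8.94 and 9.23, and 9.58 and 9.33. HEME2 went from 10.05 and 10.22 to 8.78 and 8.35 and then to 7.58 and 7.73. AT1G74470, listed as a geranylgeranyl reductase, which makes the phytyl tail of chlorophyll, had one of the brightest signals, 13.55 and 13.54 in dark flu. It was at 12.13 and 11.77 at 30 min and at 9.7 and 9.47 at 120 min, while the arrays of the other genotypes lay between 13.09 and 13.67. The 11 measured genes of the tetrapyrrole list had a median in flu of -0.9 at 30 min and -1.7 at 120 min, and the rule had chosen HEME1 (-1.79 ± 0.14) and HEME2 (-1.57 ± 0.13) on their values at 30 min.

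Genes of organelle gene expression were fewer. FUG1 (AT1G17220), a plastid translation initiation factor, was at 10.21 and 10.39 in dark flu, 8.3 and 7.75 at 30 min and 7.52 and 7.42 at 120 min. In wt the arrays were at 9.91 and 10.05 in the dark and at 11.06 and 10.17 at 120 min. CRR21, a pentatricopeptide repeat protein of plastid RNA editing, started lower, at 5.65 and 6.25, and reached 4.18 and 4.69, then 3.55 and 3.38. DAL1, named by the platform table only, went from 9.22 and 9.28 to 7.84 and 7.61 and then 6.89 and 6.85. CRR21 was the early-lost gene among 14 of the plastid gene expression list, and the list median in flu was -0.37 at 30 min and -0.64 at 120 min.

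**Figure D2:**
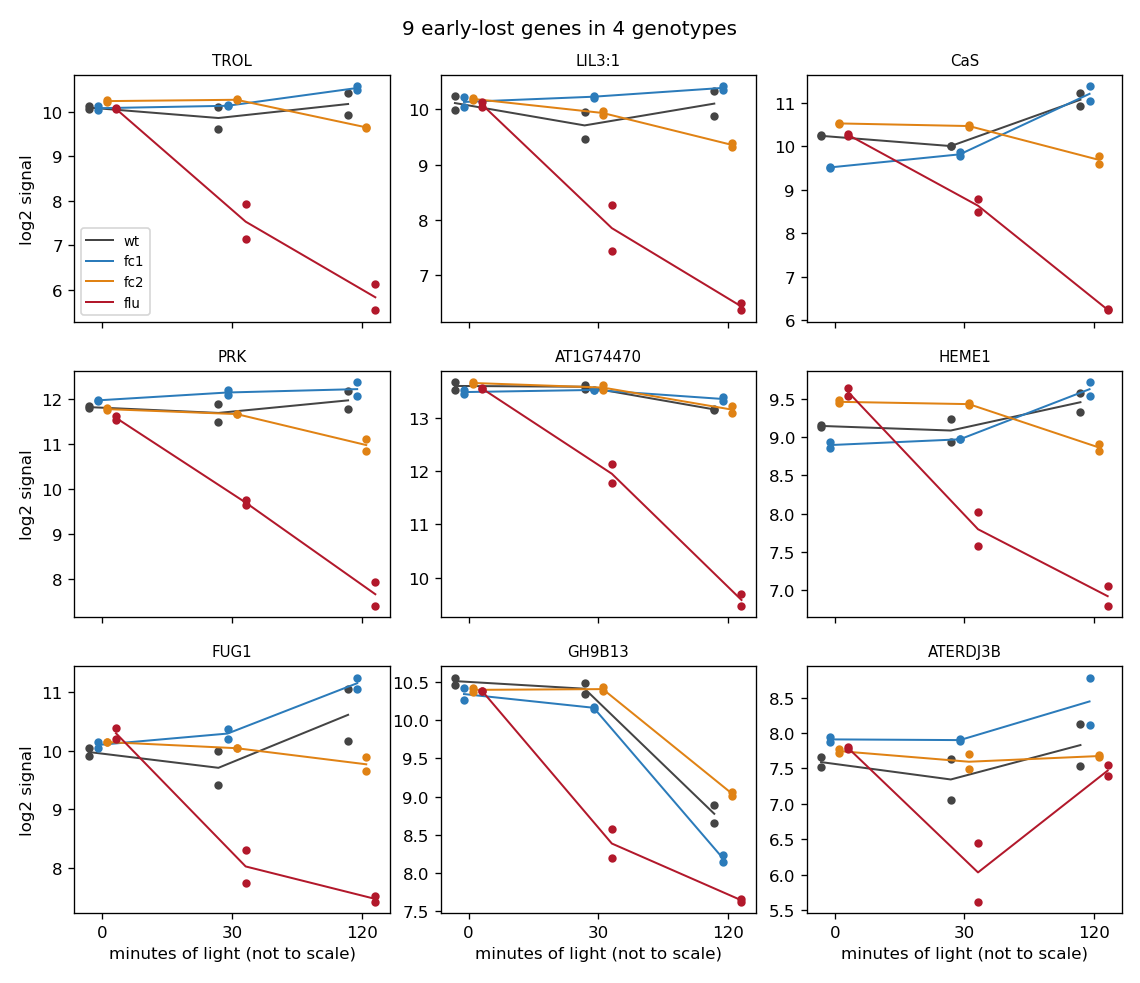
Log2 signal of 9 early-lost genes on every array, by minutes of light (axis not to scale), with lines through the group means of wt, fc1, fc2 and flu. TROL, LIL3:1, CaS, PRK, AT1G74470 and HEME1 go on falling in flu to 120 min, FUG1 and GH9B13 do so by less, and ATERDJ3B is at 7.39 and 7.55 in flu at 120 min after 6.45 and 5.62 at 30 min.

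Some genes of cell wall and secreted proteins, most of them picked after their values were seen, are given next. EXPA4 and EXPA16 are expansins, which loosen walls of growing cells. EXPA4 was at 10.23 and 10.1 in dark flu, 7.89 and 8.08 at 30 min and 8.26 and 7.85 at 120 min, so the later arrays overlapped the earlier ones. The glycosyl hydrolase family 9 genes differed in the wild type: GH9C2 was at 9.46 on both dark wt arrays and 9.94 and 9.67 at 120 min, and GH9B13 was at 10.56 and 10.47 and then 8.66 and 8.89. In flu both had been lost by 30 min, GH9C2 to 7.6 and 7.56 and GH9B13 to 8.19 and 8.58.

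SKU5, a glycoprotein of directional root growth, went from 10.48 and 10.52 in dark flu to 8.94 and 8.51, then 8.83 and 8.89. BGLU44 went from 8.85 and 9.14 to 6.65 and 6.7, then 7.55 and 6.88. SBT1.3, a subtilase, went from 9.6 and 9.52 to 7.12 and 8.35, then 7.9 and 7.08. For SKU5 and SBT1.3 the lit flu groups overlapped, for BGLU44 both late arrays were above both early ones, and none of the 3 took the further step down of the thylakoid genes. EXPA4 and EXPA16 were 2 of 44 measured genes of the cell wall list, whose median in flu was 0.01 at 30 min and -0.16 at 120 min.

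ATERDJ2B and ATERDJ3B are J-domain co-chaperones of the endoplasmic reticulum. ATERDJ3B was at 7.77 and 7.8 in dark flu, 6.45 and 5.62 at 30 min and 7.39 and 7.55 at 120 min. ATERDJ2B was at 5.4 and 5.73, then 3.48 and 3.83, then 4.15 and 4.07. In both genes the flu arrays at 120 min lay above those at 30 min and below those in the dark.

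The remaining named genes have various roles. SWEET1, a sugar transporter, was at 8.37 and 8.29 in dark flu, 6.24 and 6.84 at 30 min and 6.93 and 6.03 at 120 min, while wt went from 7.92 and 8.0 to 8.68 and 8.95. ALDH3F1, an aldehyde dehydrogenase, GSTL3, a lambda-class glutathione transferase, TRM20, of the TON1-recruiting family, and CP5 had changes in flu at 30 min of -1.64 ± 0.21, -1.66 ± 0.2, -1.93 ± 0.23 and -1.75 ± 0.12. NGA1, a B3-domain transcription factor of lateral organ growth, CCL, a light-regulated gene, and OLEO3, an oleosin of oil bodies, were lost early in flu and late in wt. OLEO3 was at 9.91 and 9.79 in dark flu and 8.39 and 8.13 at 30 min, while wt was at 10.39 and 10.21 in the dark, 10.13 and 10.01 at 30 min and 8.2 and 8.15 at 120 min. It moved against the mean of the 5 seed markers, OLEO3 included, which was higher in flu at 30 min than in dark flu. SWEET1 was 1 of 27 genes on the transport list, which had a median of 0.35 in flu at 30 min, and OLEO3 was 1 of 8 on the seed maturation list, with a median of 0.95. The other 14 lists (plastid import, proteases and chaperones, carotenoid and isoprenoid synthesis, auxin, cytokinin, gibberellin and brassinosteroid, cell division and cytoskeleton, light signalling, circadian clock, transcription factor families, cytochrome P450, lipid and cuticle, jasmonate, salicylate and defence, root, reference genes) held 0 early-lost genes.

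At 120 min most of the loss in flu remained, and for many genes it went further. The median change from the dark was -2.3 at 120 min, against 0.01 for all probe sets. In all, 259 of the 335 were still at least 1.5 below their dark level, 70 were at least 3 below, 34 were within 1 of it and 1 was above it. These values share the dark flu arrays with the rule and carry no test. From 30 to 120 min, 220 of the 335 were lower and 115 higher, where 53.8% of all probe sets were lower. By at least 1 unit, 68 of the 335 were lower and 18 higher. Among probe sets with 1 gene, CaS (-2.39 ± 0.12), AT1G74470 (-2.37 ± 0.11), AT2G42220 (-2.28 ± 0.17), PRK (-2.04 ± 0.17) and AT1G01390 (-1.96 ± 0.12) had the largest further losses. AT2G42220 went from 10.63 and 10.72 in dark flu to 9.08 and 8.41 and then 6.6 and 6.34, with no overlap between times.

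A few genes were back near their dark level in flu at 120 min. The rule chose low values on the flu arrays at 30 min. Gains from that time may partly reflect the choice, and they are given as a description with no test. AT2G44820 was at 6.98 and 7.03 in dark flu, 5.54 and 4.98 at 30 min and 6.95 and 6.63 at 120 min. AT1G07700 was at 7.79 and 8.02, then 6.54 and 6.17, then 7.66 and 7.87, so the arrays at 120 min overlapped those in the dark. Among probe sets with 1 gene, AT2G44820 (1.53 ± 0.27), ATERDJ3B (1.44 ± 0.25), AT1G07700 (1.41 ± 0.16), AT5G12400 (1.27 ± 0.32) and AT1G69160 (1.15 ± 0.15) had the largest gains from 30 to 120 min.

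**Figure D3:**
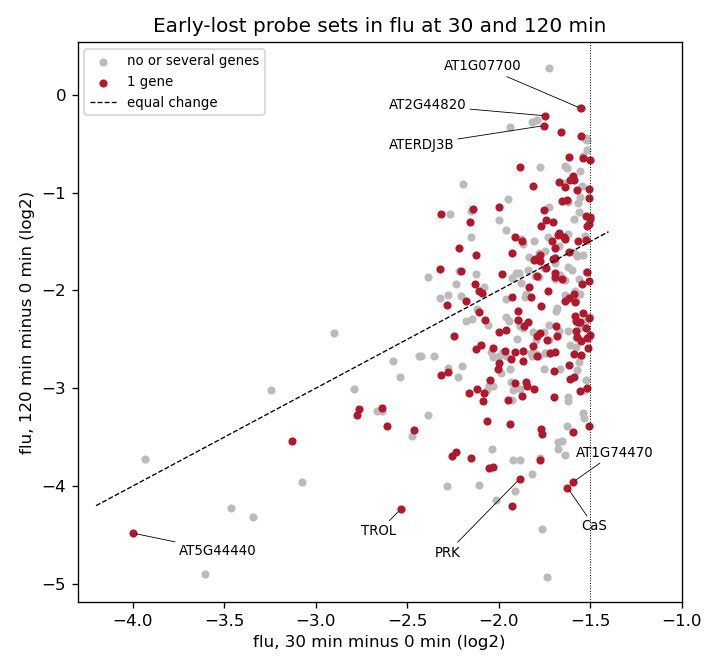
Change of each of the 335 early-lost probe sets in flu from 0 to 30 min (x) and from 0 to 120 min (y), in log2 units; both axes share the dark flu arrays, the dotted line is the rule's -1.5 and the dashed line marks equal change. Points under the dashed line went lower after 30 min, such as CaS (-1.63 and -4.02) and TROL (-2.53 and -4.23), and AT1G07700, AT2G44820 and ATERDJ3B lie near 0 on the y axis.

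Arrays that took no part in the choice, flu against fc2 and fc1 at 120 min, gave a test of the late level. Of the 335, 304 (90.7%) were lower in flu than in fc2 and 0 were higher, by limma at an adjusted p under 0.05, and 309 differed at an unadjusted p under 0.05. Over all probe sets, 16.0% were lower and 21.5% higher, 37.5% in either direction. The median difference was -1.61, and 253 were at least 2-fold lower in flu. Against fc1, 318 (94.9%) were lower and 2 higher, with 21.7% and 29.0% of all probe sets, 50.6% in either direction, and the median difference was -2.14. Both flu arrays were below both fc2 arrays for 320 of the 335, against 26.6% of all probe sets, and below both fc1 arrays for 327, against 29.9%.

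All 5 thylakoid genes were lower in flu at 120 min than in fc2. The difference was -3.82 ± 0.22 for TROL (limma, adjusted p = 1.48e-10), -3.44 ± 0.12 for CaS (adjusted p = 7.19e-13) and -3.01 ± 0.18 for NdhL (adjusted p = 3.75e-10). AT5G44440 (-3.87), AT2G42220 (-3.58), AT1G74470 (-3.56) and AT2G34620 (-3.49) showed differences of the same order. Against fc1 the lowest called values among probe sets with 1 gene and no overlap of arrays were those of AT4G28080 (-5.2 ± 0.28, limma adjusted p = 2.85e-11), CaS (-4.96 ± 0.12), TROL (-4.71 ± 0.22), PRK (-4.57 ± 0.17) and AT2G42220 (-4.32 ± 0.17). AT4G28080 was at 6.35 and 5.87 in flu, 9.37 and 9.31 in fc2 and 11.16 and 11.45 in fc1, without overlap. Among the genes with a symbol, 29 of 30 were lower in flu than in fc2 and 30 of 30 lower than in fc1, and ATERDJ3B had the value that missed the threshold against fc2, -0.2 ± 0.25 (limma, adjusted p = 0.573).

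The named gene higher in flu than in fc1 was AT2G34020, by 0.51 ± 0.12 (limma, adjusted p = 0.00118). It was at 8.84 and 8.85 in dark flu, 7.14 and 7.45 at 30 min and 6.42 and 6.24 at 120 min. Light took it lower still in fc1, from 9.26 and 9.38 to 5.82 on both arrays at 120 min, and in wt from 9.2 and 9.26 to 5.57 and 5.76. In fc2 it was at 9.12 and 9.13 in the dark and 8.09 and 7.87 at 120 min, the highest level of the 4 genotypes at that time.

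After 30 min the ferrochelatase mutants showed little of the loss seen in flu. In fc2, 19 of the 335 (5.7%) fell and 0 rose, where 1.1% of all probe sets fell and 1.92% rose, 3.02% in either direction (limma, adjusted p under 0.05), and the median was -0.16 against -0.01 for all. Among probe sets with 1 gene and no overlap of arrays, the lowest called values were those of EXPA4 (-0.59 ± 0.12, limma adjusted p = 0.00772), AT5G44440 (-0.59 ± 0.15, adjusted p = 0.0329), AT1G11850 (-0.59 ± 0.12, adjusted p = 0.00492), AT3G13510 (-0.57 ± 0.1, adjusted p = 0.00209) and AT1G68780 (-0.52 ± 0.12, adjusted p = 0.0148). EXPA4 was at 9.98 and 10.05 in dark fc2 and 9.5 and 9.34 at 30 min, without overlap, and far above its 7.89 and 8.08 in flu. The thylakoid genes had values between -0.27 (NdhL) and 0.03 (TROL) and none was called. The count of 19 was 4 without replicate 1 of dark fc2, 3 without replicate 2 of it, and 5 and 7 without replicates 1 and 2 of fc2 at 30 min. AT5G44440 missed the threshold (adjusted p = 0.0616) with seed-maturation level as a covariate.

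In fc1 at 30 min, 10 of the 335 (3.0%) fell and 4 (1.2%) rose, where 3.55% and 3.68% of all probe sets did so, 7.22% in either direction, and the median was -0.03. The share that fell is near the background, and the share that rose is below it. AT4G34220 (-0.53 ± 0.11, limma adjusted p = 0.00364) and AT5G11420 (-0.49 ± 0.1, adjusted p = 0.00244) fell, while AT1G52870 rose by 0.55 ± 0.13 (adjusted p = 0.0129). With reference-gene scaling 3 fell and 7 rose, and AT1G67750 (adjusted p = 0.107), AT2G34020 (adjusted p = 0.236) and AT5G13140 (adjusted p = 0.24) were no longer called. The count of 14 was 6 and 7 without replicates 1 and 2 of dark fc1, 6 and 5 without those of fc1 at 30 min, and 22 without either array of wt at 120 min.

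By 120 min the fc2 mutant had lost part of the set. In fc2, 196 of the 335 (58.5%) fell and 5 (1.5%) rose, against 14.0% and 10.8% of all probe sets, 24.8% in either direction (limma, adjusted p under 0.05). The median was -0.56, against -0.03 for all probe sets and -2.3 for flu, and 33 fell by at least 2-fold. The seed-marker mean was higher on the fc2 arrays at 120 min (7.42 and 8.35) than on the dark ones (5.96 and 5.94), and at 30 min it was 8.03 and 6.14. With seed-maturation level as a covariate, 179 fell and 5 rose at 120 min. Flu at 120 min stood lower than fc2 for 304 of the 335, as given above.

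Among genes with a symbol, 18 of 30 fell in fc2 by 120 min and 0 rose. OLEO3 (-1.38 ± 0.12, limma adjusted p = 1.27e-07), GH9B13 (-1.36 ± 0.11, adjusted p = 4.84e-08) and SBT1.3 (-1.25 ± 0.27, adjusted p = 0.00158) had the lowest values of these. AT5G07030 had the lowest called value among probe sets with 1 gene and no overlap of arrays. It changed by -1.42 ± 0.14 (limma, adjusted p = 2.62e-07), from 10.02 on both dark fc2 arrays to 8.66 and 8.54. Of the thylakoid genes, NdhL (-0.98 ± 0.18, limma adjusted p = 0.000578), CaS (-0.83 ± 0.12, adjusted p = 4.6e-05), LIL3:1 (-0.83 ± 0.2, adjusted p = 0.00522) and LIL3:2 (-0.66 ± 0.17, adjusted p = 0.00725) fell, while TROL missed the threshold (-0.59 ± 0.22, adjusted p = 0.0583).

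PRK (-0.8 ± 0.17, limma adjusted p = 0.00163), HEME1 (-0.59 ± 0.14, adjusted p = 0.00328) and HEME2 (-0.68 ± 0.13, adjusted p = 0.000765) also fell in fc2. Both HEME genes lay lower on each fc2 array at 120 min (8.82 and 8.91 for HEME1, 9.41 on both for HEME2) than on each dark one (9.48 and 9.44, 10.09 and 10.08). Of the 11 tetrapyrrole genes 8 fell and 0 rose, with a list median of -0.45. FUG1 had a value of -0.38 ± 0.23 (adjusted p = 0.271). AT1G07700 (0.85 ± 0.16, limma adjusted p = 0.000416) and AT3G47295 (0.61 ± 0.17, adjusted p = 0.0141) rose.

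In fc1 the same set went in 2 directions at 120 min. The quartiles of the change were -0.405 and 0.538, and in wt, which the rule limited on the upper side, -0.462 and 0.322. In fc1, 83 (24.8%) fell and 88 (26.3%) rose, against 19.1% and 15.3% of all probe sets, 34.4% in either direction, with a median of 0.03. Falls of at least 2-fold numbered 30 and rises 31. With reference-gene scaling 50 fell and 142 rose, and the all-probe-set median of this comparison went from -0.01 to 0.25. The seed-marker mean was 8.26 and 6.32 on the fc1 arrays at 120 min against 8.16 and 8.23 in the dark, and with that level as a covariate 77 fell and 80 rose. On the wt arrays at 120 min it was 6.5 and 8.59. CaS rose by 1.69 ± 0.12 (limma, adjusted p = 4.52e-09), AT4G28080 by 1.43 ± 0.28 (adjusted p = 0.000497), AT3G48420 by 1.35 ± 0.19 (adjusted p = 1.96e-05) and AT1G52870 by 1.34 ± 0.13 (adjusted p = 2.35e-07). Among probe sets with 1 gene and no overlap of arrays, the lowest called values were those of AT2G34020 (-3.5 ± 0.12, limma adjusted p = 2.4e-13), GH9B13 (-2.16 ± 0.11, adjusted p = 7.6e-11), CCL (-2.15 ± 0.17, adjusted p = 1.46e-08), AT4G01130 (-1.84 ± 0.15, adjusted p = 2.29e-08) and OLEO3 (-1.79 ± 0.12, adjusted p = 2.52e-09).

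HEME1 and HEME2 rose in fc1, by 0.73 ± 0.14 (limma, adjusted p = 0.000362) and 0.61 ± 0.13 (adjusted p = 0.00121), as did FUG1 by 1.05 ± 0.23 (adjusted p = 0.00125) and SWEET1 by 1.1 ± 0.21 (adjusted p = 0.000343). Of the 16 photosystem and light-harvesting genes, 10 rose in fc1 and 1 fell, while in fc2 2 rose and 6 fell. LIL3:2 was the thylakoid gene that fell in fc1 (-0.51 ± 0.17, limma adjusted p = 0.0247), and TROL (0.45 ± 0.22), LIL3:1 (0.25 ± 0.2) and NdhL (0.38 ± 0.18) did not pass the test.

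Dark and lit arrays of fc1 and fc2 are separate, so their calls at 120 min can be set side by side. Of the 196 that fell in fc2, 72 (36.7%) also fell in fc1, 41 (20.9%) rose there and 83 were not called. The 72 made up 86.7% of those that fell in fc1, and the 41 made up 46.6% of those that rose. These joint shares were not counted over all probe sets. Whether the overlap is particular to the early-lost set was therefore not tested, and the counts are given as a description.

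The wild-type course at 120 min, which the rule limited on the upper side, separated these behaviours, and it is used here as a description. In wt, 32 of the 335 were at least 1 unit below the dark at 120 min, 205 were within 0.5, and 52 were at least 0.5 above. All 32 of the first kind fell in fc2 and 31 fell in fc1, where 85.3% and 97.2% of all 505 probe sets in the same wild-type range did so. The medians were -0.91 in fc2, -1.41 in fc1, -1.36 in wt and -2.36 in flu, and GH9B13, CCL, OLEO3, NGA1 and AT2G34020 were among them. Of the 52, by contrast, 49 rose in fc1 and 3 rose in fc2, where 13 fell. Over all 1154 probe sets that gained 0.5 to under 1 in wt, 82.6% rose in fc1 and 0.173% fell, while 51.0% rose in fc2 and 5.46% fell, with medians of 0.76 and 0.44, while the 52 had medians of 1.03 and -0.25. CaS, FUG1, SWEET1, ATERDJ2B and AT1G15260 were among the 52.

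AT1G15260, for example, differed between genotypes as follows. In wt it was at 7.96 and 8.07 in the dark, 7.77 and 8.05 at 30 min and 8.96 and 8.62 at 120 min. In fc1 it was at 7.7 and 7.74, 7.81 on both arrays, and 8.78 and 8.93. In fc2 it was at 8.03 and 8.07, 7.8 and 7.47, and 6.67 and 6.77. At 120 min wt and fc1 overlapped and fc2 lay about 2 units below them. In flu it was at 8.11 and 8.28 in the dark, 5.13 and 5.0 at 30 min and 4.71 and 4.61 at 120 min, lower than every array of the other genotypes.

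**Figure D4:**
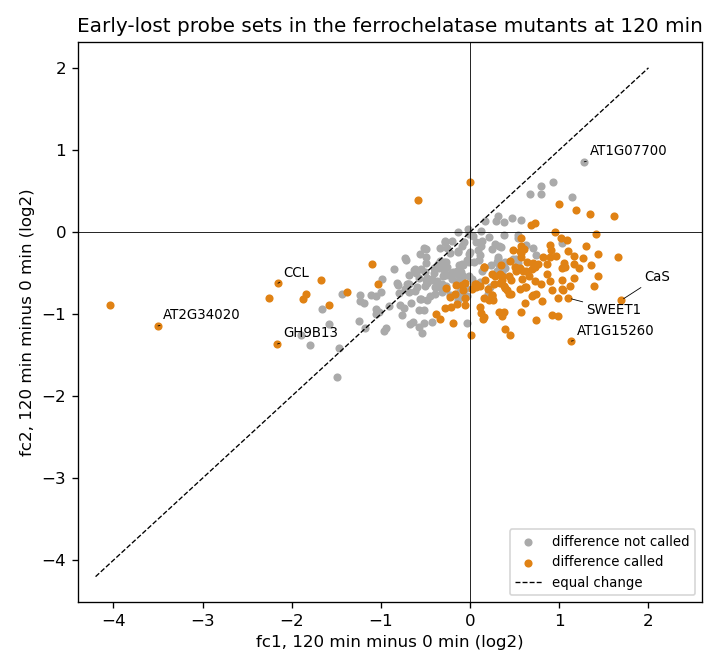
Change of each of the 335 early-lost probe sets from 0 to 120 min of light in fc1 (x) and fc2 (y), in log2 units; orange points have a called difference between the responses of the mutants, and the dashed line marks equal change. Most orange points lie under the dashed line, such as CaS (1.69 and -0.83) and AT1G15260 (1.14 and -1.33), and AT2G34020 (-3.5 and -1.15) and CCL (-2.15 and -0.62) lie above it.

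Set directly against each other at 120 min, 190 of the 335 (56.7%) were lower in fc2 than in fc1 and 17 (5.1%) higher, against 13.4% and 13.9% of all probe sets, 27.3% in either direction (limma), with a median difference of -0.56. AT1G15260 (-2.13 ± 0.13, limma adjusted p = 2.63e-09), AT4G28080 (-1.96 ± 0.28, adjusted p = 4.28e-05), CRR21 (-1.84 ± 0.32, adjusted p = 0.000303), AT3G22150 (-1.75 ± 0.29, adjusted p = 0.000188) and SWEET1 (-1.67 ± 0.21, adjusted p = 1.06e-05) had the lowest called values among probe sets with 1 gene and no overlap of arrays. SWEET1 was at 7.15 and 7.13 in fc2 and 8.83 and 8.78 in fc1. On the high side were AT2G34020 (2.16 ± 0.12, adjusted p = 8.16e-10), CCL (0.95 ± 0.17, adjusted p = 0.000409) and GH9B13 (0.85 ± 0.11, adjusted p = 2.5e-05), which light lowers in both mutants.

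The test of the light response itself, fc2 minus fc1 at 120 min, called 133 (39.7%) as more negative in fc2 and 14 (4.2%) as more positive, against 8.13% and 8.08% of all probe sets, 16.2% in either direction (limma), with a median of -0.57. With reference-gene scaling 177 were more negative and 7 more positive, and the all-probe-set median went from 0.01 to -0.21. CaS had the lowest value, -2.52 ± 0.17 (limma, adjusted p = 3.07e-08), and NdhL (-1.36 ± 0.26, adjusted p = 0.0014), LIL3:1 (-1.09 ± 0.29, adjusted p = 0.0145), TROL (-1.04 ± 0.31, adjusted p = 0.0267) and PRK (-1.05 ± 0.24, adjusted p = 0.00527) were called the same way. LIL3:2 (-0.14 ± 0.24, adjusted p = 0.782), EXPA4 (-0.26 ± 0.17, adjusted p = 0.399) and AT5G44440 (0.01 ± 0.21, adjusted p = 0.985) were not called. Of the lists, 12 of 16 photosystem and light-harvesting genes, 3 of 3 Calvin cycle genes and 6 of 11 tetrapyrrole genes were more negative in fc2, and 0, 0 and 1 more positive. In the cell wall list 2 of 44 were more negative and 5 more positive.

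At 30 min the same test called 3 of the 335 (0.9%), all more negative in fc2, where 0.599% of all probe sets were, with 0.374% more positive and 0.972% in either direction. With reference-gene scaling 4 were more negative and 0 more positive. With 1 gene there was AT1G11850 (-0.78, limma adjusted p = 0.0212), and the other 2 have no listed gene. The count was 1 without any one of 6 arrays, both of dark fc2, both of fc2 at 30 min, replicate 2 of dark fc1 and replicate 1 of fc1 at 30 min. In the dark, 1 of the 335 was lower in fc2 than in fc1 and 10 (3.0%) were higher, against 0.563% and 0.828% of all, 1.39% in either direction. With reference-gene scaling 0 were lower and 39 higher, and the all-probe-set median went from 0.01 to 0.21. CaS was higher by 1.01 ± 0.12 (limma, adjusted p = 0.00027), AT2G34620 by 0.89 ± 0.17 (adjusted p = 0.0107), AT2G42220 by 0.76 ± 0.17 (adjusted p = 0.0392) and AT1G11850 by 0.48 ± 0.12 (adjusted p = 0.0469). Among these 4, only CaS kept its call with seed-maturation level as a covariate, where AT2G34620 (adjusted p = 0.058), AT2G42220 (adjusted p = 0.109) and AT1G11850 (adjusted p = 0.092) did not pass. The dark count of 11 was 3 without any 1 of the 4 arrays compared, 7 without either array of dark wt or of fc2 at 120 min, and 6 without either array of fc1 at 30 min.

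**Figure D5:**
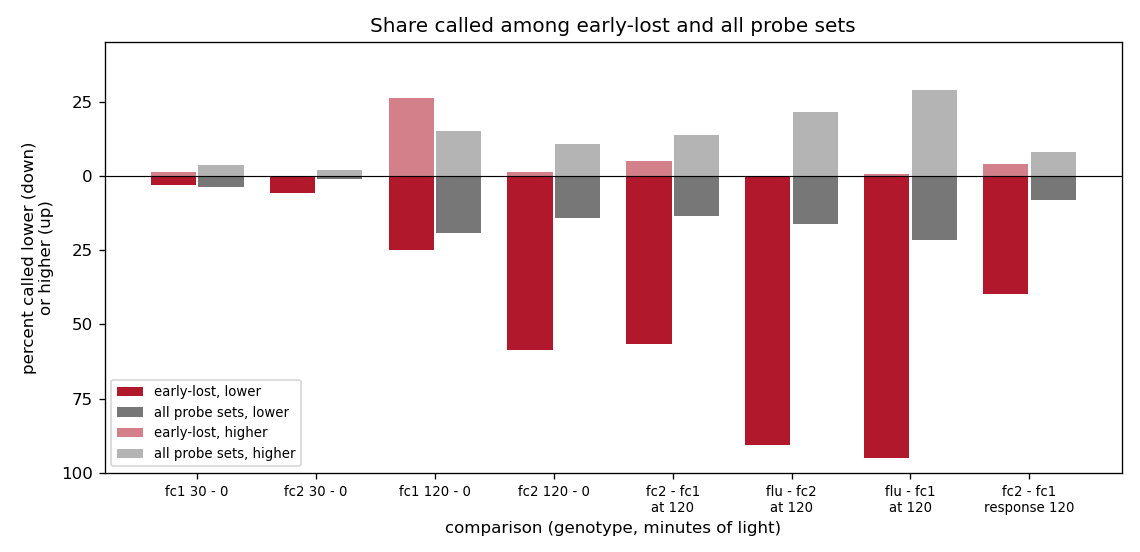
Percent of the 335 early-lost probe sets (red) and of all 22217 probe sets (grey) called lower (down) or higher (up) by limma at an adjusted p under 0.05, in 8 comparisons that use none of the arrays of the rule. The red bars reach 94.9% lower for flu against fc1 at 120 min and 58.5% for fc2 at 120 min against the dark, while fc1 at 120 min has 24.8% lower and 26.3% higher.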

How the data were processed

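The values are log2 signals that the authors deposited for 24 arrays and made with RMA, per the submitters' processing notes. Biotin-labelled cRNA came from 450 ng of total RNA, per the labels' protocols. No software version or genome build is named there. RMA gives no detection call, and no further normalization was applied. Arrays carry no read depth, and their number limits the precision. Names came from the platform table and the TAIR10.1 gene table, which gave 1 gene to 13171 probe sets, several to 482 and none to 8564. Of the 335 probe sets, 10 have the suffix of probe sets that may match several transcripts. No promoter or protein sequence was used here.

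All 22217 probe sets entered 1 limma fit (version 3.58.1 under R 4.3.3) with a coefficient for each of the 12 groups, and variances were moderated (12 residual and 5.33 prior degrees of freedom). For each of 10 contrasts two-sided p-values were adjusted by Benjamini and Hochberg's method over the whole table, and called, rose and fell mean an adjusted p under 0.05. Contrasts that share an array with the rule (dark and 30 min flu, all wt) were described without a test. The SE pools all groups and may be too small for noisier ones. Fold thresholds of 2-fold are 1 log2 unit.

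The members and the 21 gene lists, of which 7 held early-lost genes, were chosen with earlier results of these data known. The lists were made from patterns in gene symbols, so genes without a symbol could not be on them. Genes named were those with 1 gene per probe set that had the 12 lowest flu changes at 30 min, up to 5 lowest and 5 highest called values of each contrast without overlap of arrays, the 5 largest gains and losses from 30 to 120 min, the 5 extremes of dark flu against wt, those nearest the threshold, and up to 4 per list. Other genes with a symbol, and some followed across comparisons, were named after their values were seen.

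Data for fc2 at 120 min were simulated over 22217 probe sets, with 100 changed by -0.5 and 100 by -1. The fit recovered 38% and 92% of them, with 7 false calls. In the real comparison 24.8% of all probe sets were called, so recovery there may differ. Alternatives were reference-gene scaling (AT4G34270 and AT2G28390), leaving out the dimmest 40%, trended and robust moderation, the replicate number as a block, the arrays of the compared genotypes alone, seed-maturation level (mean of M10, M17, PAP85 and the early-lost OLEO3) and array spread as covariates, and each array left out. Equal spread on all arrays was chosen after seeing the data. Python 3.11.15, pandas 2.3.3 and matplotlib 3.10.9 made tables and figures.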

Additional observations from a re-analysis of the deposited data

Results flagged for a closer look

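The light response at 120 min differed by test between fc2 and fc1 for 147 (43.9%) of the 335 early-lost probe sets, against 16.2% of all probe sets. Among those with 1 gene, the response was lower in fc2 by the largest amounts for CaS (-2.52), AT1G15260 (-2.46), AT4G28080 (-1.97), SWEET1 (-1.91) and AT1G68780 (-1.81). It was higher in fc2 for AT2G34020 (2.35), CCL (1.53), AT4G01130 (1.09), AT5G24490 (1.08) and GH9B13 (0.8), and light lowered these 5 genes in both mutants. At 30 min the responses differed by test for 3 (0.9%) of the 335, with AT1G11850 (-0.78) the one with a gene. That share is near the 0.972% of all probe sets. With 2 arrays in a group, no array could be set apart from the rest of its group.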

How the results depend on the processing

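Reference-gene scaling took the number of probe sets that met the rule from 335 to 149. For the original 335, it took the median change in flu at 120 min from -2.3 to -2.15. It raises the arrays of flu at 30 min by construction, and the all-probe-set median there went from 0.06 to 0.33. Equal spread gave 324 probe sets, 309 of them shared. Reference-gene scaling also took fc1 at 120 min from 83 lower and 88 higher to 50 and 142. Other totals that moved by over 1.5 times follow, with the main value in brackets, and the cause was not tested. The fit on the arrays of the compared genotypes gave 38 for fc2 at 30 min (19), 31 for fc1 at 30 min (14), 57 for fc2 against fc1 in the dark (11) and 13 for their responses at 30 min (3). The array-spread covariate gave 22 for fc1 at 30 min, 18 in the dark and 6 for the responses at 30 min. In the dark, reference-gene scaling gave 39, leaving out the dimmest 40% gave 17, trended and robust moderation 19 and the seed-maturation covariate 4.

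Leaving out single arrays gave 3 to 23 for fc2 and 5 to 22 for fc1 at 30 min, 143 to 210 for fc2 (201) and 132 to 188 for fc1 (171) at 120 min, 283 to 307 for flu against fc2 (304), 308 to 325 for flu against fc1 (320), 146 to 219 for fc2 against fc1 at 120 min (207), 3 to 16 in the dark, 1 to 4 and 110 to 155 for the responses at 30 and 120 min (3 and 147), 235 to 477 for the rule and -2.38 to -2.17 for the flu median. Replicate differences of the 66 pairs of groups correlated between -0.54 and 0.4, with 19 above 0.1. Such a mixed range cannot show whether arrays with the same replicate number share a plate or seed lot. With the replicate number as a block the 10 counts were 17, 13, 195, 169, 302, 317, 202, 8, 2 and 142, in the order fc2 and fc1 at 30 min, fc2 and fc1 at 120 min, flu against fc2, flu against fc1, fc2 against fc1 at 120 min and in the dark, and the responses at 30 and 120 min.

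The values of named genes, 64 in all, kept direction and call in 1904 of 1984 settings. They kept direction but lost the call in 80, and reversed in 0. Most of these settings left out 1 array, often one outside the comparison, where the difference itself cannot change. The genes were also picked for being called, so these counts were largely fixed in advance. Among the 80 lost calls, GH9B13 lost its call for the responses at 120 min under reference-gene scaling (0.58, limma adjusted p = 0.0697). AT1G11850 lost its dark call under the block (adjusted p = 0.0575).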
